A study of Mus musculus with 4 samples.

Results

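Effector and memory CD8 T cells of the mouse liver were studied here, before and 12 h after an injection of colon carcinoma cells into the spleen. They were picked from single-cell RNA libraries by their own transcripts. A cell had to hold at least 1 unique molecular identifier (UMI, which marks a captured transcript) of Cd3d, Cd3e or Cd3g, at least 1 of Cd8b1, and either at least 2 of Ccl5 or at least 1 of Gzmk. Cells with a UMI of the B cell gene Cd79a, or with more than 1 of the myeloid gene Lyz2, were left out. The 4 libraries held 20039 barcodes in which 200 or more genes were found and mitochondrial UMIs stayed below 10%, and 1212 of them met this rule.

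The mice carried the IL-22sgBFP reporter, and the leukocytes had been sorted as CD45-positive cells with or without the blue fluorescent signal of IL-22. The 4 libraries, 1 per group, hold the IL-22-negative and the IL-22-positive fraction of liver taken before the injection (0 h) and 12 h after 300000 MC38 cells in 250 µl of saline. MC38 is a mouse colon carcinoma line, and cells put into the spleen travel by the portal vein to the liver. No library followed an injection without cancer cells, so the surgery, the injection and the cancer cells cannot be told apart. The number of mice behind each library is not given.

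CD8 T cells that have met antigen carry a store of cytotoxic proteins. Granzymes and perforin are released onto a target cell, and chemokines such as Ccl5 call in further leukocytes. Some memory cells of this lineage recirculate through blood and lymph nodes, and others stay in a tissue, where in the liver they often carry the chemokine receptor Cxcr6. Such cells respond to type I interferon, which switches on a common set of antiviral genes, and to interferon gamma, which many of them make themselves.

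The rule found 491 cells at 0 h and 712 at 12 h in the IL-22-negative libraries. The IL-22-positive libraries held 5 of 289 and 4 of 1350 barcodes, so all comparisons below rest on the IL-22-negative pair. Median depth was 3119 UMIs per cell at 0 h and 3373 at 12 h, and the summed cells held 1615042 and 2614052 UMIs. Across the libraries, 142 barcode sequences were kept in more than 1 of them, and 1 barcode met the rule in more than 1. With 1 library per group there is no test of the time difference. Intervals are exact 95% intervals that cover counting error alone, and the spread between mice is not in them. Those of gene levels and their ratios treat each UMI as an independent draw, so they also leave out the spread between cells.

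The cells made up 5.91% (5.42 to 6.44) of kept barcodes at 0 h and 7.05% (6.56 to 7.57) at 12 h, a ratio of 1.19 (1.06 to 1.34). Among cells with both Cd3 and Cd8b1 UMIs they were 60.1% (56.6 to 63.5) of 817 and 65.3% (62.4 to 68.1) of 1091, a ratio of 1.09. The interval of that ratio, 0.967 to 1.22, was computed as for small shares and is too wide for shares of this size. It therefore does not decide whether the ratio differs from 1 within counting error. The first ratio was 0.976 when every barcode was thinned to 1000 UMIs before the rule was applied, so its direction changed with thinning.

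The label was checked against genes that the rule did not use. Nkg7, a granule membrane protein of killer cells, had a UMI in 93.1% of the cells at 0 h and 96.1% at 12 h. It was also found in 22% and 18.3% of B cells. Eomes, a transcription factor of memory CD8 and NK cells, had a UMI in 15.9% and 12.8% of the cells, against 1.07% and 0.964% of B cells. The share was thus low in cells picked for an effector and memory label. Cd44, the classical antigen-experience marker, had a UMI in 11.2% and 15.5%. Cd8a, the other chain of the CD8 coreceptor, was at 321 CPM (UMIs of the gene per 1000000 UMIs summed over the cells) at 0 h and 338 CPM at 12 h. None of the genes in the neutrophil, hepatocyte, epithelial or erythroid lists reached the 50 UMIs over both sums that count here as measured.

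Ccl5 and Gzmk themselves set who was counted. Ccl5 had a median of 26 UMIs per cell at 0 h and 31 at 12 h, with a highest value of 368 and 268. Gzmk, granzyme K, was found in 95 cells (19.3%) at 0 h and 152 (21.3%) at 12 h, and the other 396 and 560 cells entered through Ccl5 alone. B cells should lack both, yet 50.8% of the 1591 B cells before and 32.4% of the 1452 after the injection had a Ccl5 UMI. At least 2 Ccl5 UMIs were found in 21.3% and 14.3% of those B cells, and a Gzmk UMI in 1.82% and 0.758%, at median depths of 1803 and 1801 UMIs. The lower end of the Ccl5 range therefore overlaps with counts found in B cells. The source of those UMIs, such as free RNA, was not tested.

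Cells just inside and just outside the Ccl5 limit both held genes of naive T cells. With exactly 1 Ccl5 UMI and no Gzmk, outside the rule, 141 cells at 0 h and 92 at 12 h held Lef1, a factor of naive T cells, at 370 and 263 CPM. The 88 and 70 cells with 2 to 4 Ccl5 UMIs held it at 259 and 226 CPM. Dapl1, another gene of naive CD8 cells, was at 333 and 403 CPM outside and at 311 and 201 CPM inside, and its counting intervals at 12 h (332 to 483 outside, 148 to 266 inside) do not overlap. Genes of killer cells were higher further up the range.

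**Figure D1:**
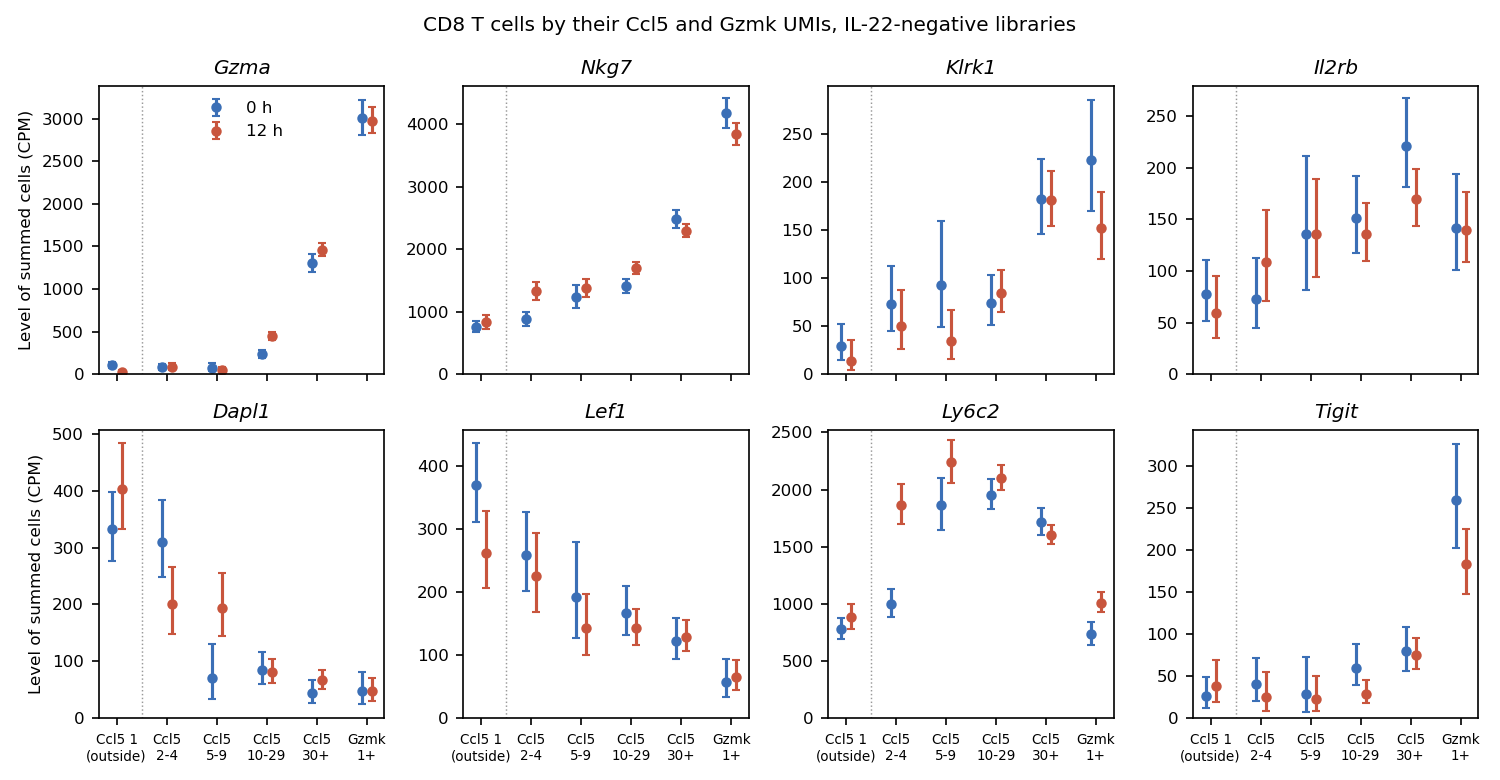
Level in CPM of 8 genes in CD8 T cells grouped by their Ccl5 UMIs without Gzmk, or by Gzmk, at 0 h (blue) and 12 h (red). The leftmost group lies outside the rule, bars are 95% counting intervals, and Gzma reaches 3012 CPM at 0 h and 2978 CPM at 12 h in the Gzmk-positive group.

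Along this range the effector genes were higher and the naive genes lower, in both libraries. Gzma, granzyme A, was at 80.4, 71.4, 234 and 1301 CPM at 0 h in cells with 2 to 4, 5 to 9, 10 to 29 and at least 30 Ccl5 UMIs. The same groups held 83.6, 46.6, 446 and 1460 CPM at 12 h. Nkg7 went from 877 to 2487 CPM between the first and last of these groups at 0 h, and from 1329 to 2298 CPM at 12 h. Klrk1, which encodes the activating receptor NKG2D, was at 73.1 and 182 CPM in those groups at 0 h and at 50.1 and 181 CPM at 12 h. Il2rb, a receptor chain for interleukin 15, was at 73.1 and 221 CPM at 0 h and at 109 and 170 CPM at 12 h. Lef1 was at 259 and 123 CPM at 0 h, and at 226 and 130 CPM at 12 h. The plot of genes along the Ccl5 range shows Gzma at its highest in the Gzmk-positive group.

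A small group of the cells carried transcripts of plasmacytoid dendritic cells, the main source of type I interferon among leukocytes. Siglech, a surface receptor of that cell type, had a UMI in 16 cells (3.26%) at 0 h and 28 (3.93%) at 12 h. These cells held more RNA, with medians of 4710 and 5749 UMIs against 3078 and 3303.5 in the rest. Their Bst2 stood at 2716 and 3209 CPM and their Cd74 at 7434 and 6386 CPM, while Cd8b1 was at 826 and 799 CPM. Without them the rule left 475 and 684 cells, and results that moved are given both ways. The whole dendritic cell list (Flt3, Xcr1, Siglech, Bst2, Cst3, Zbtb46 and Irf8) summed to 575 CPM at 0 h and 935 CPM at 12 h, and to 349 and 553 CPM without those cells. Xcr1 had 0 UMIs at 0 h and 1 at 12 h. The monocyte and macrophage list summed to 222 and 266 CPM, with 3 of its 5 measured genes higher at 12 h, and to 196 and 215 CPM with 0 of 4 higher without the Siglech-positive cells. Among all genes measured, 4.68% were at least 1.5-fold higher at 12 h, and 4.19% without those cells. The B cell list summed to 1038 and 1129 CPM, and to 615 and 559 CPM without them. Their part in the results was not tested beyond leaving them out.

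Cells with Gzmk were compared with those taken in through Ccl5 alone, and the genes named were chosen for passing 1.5-fold in both libraries. Of 3094 genes, 176 (5.69%) were at least 1.5-fold higher and 56 (1.81%) at least 1.5-fold lower in the Gzmk-positive cells of both libraries. Gzma was at 567 CPM in Ccl5-only and 3012 CPM in Gzmk-positive cells at 0 h, a ratio of 5.31 (4.81 to 5.87), and at 789 and 2978 CPM at 12 h, a ratio of 3.77 (3.52 to 4.05). Tigit, an inhibitory receptor, had ratios of 4.33 at 0 h and 3.84 at 12 h. Tox, a transcription factor of chronically stimulated T cells, had ratios of 3.37 and 3.47. Lgals3, galectin 3, had ratios of 5.31 and 3.34, and S100a4, a calcium-binding protein of motile effector cells, 2.97 and 2.95.

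Genes of dividing cells stood among those highest in the Gzmk-positive cells. Pclaf, a partner of the replication clamp, had ratios of 6.36 at 0 h and 4.49 at 12 h. Stmn1, a tubulin-binding protein of cycling cells, had 5.12 and 2.95. Histone genes such as Hist1h2ap (4.05 and 4.33) and Hist1h1b (3.82 and 5.2) followed them. The genes lower in Gzmk-positive cells included some of resting and recirculating T cells. Klk1 was also among the lowest, at 63.4 CPM in Ccl5-only and 0 CPM in Gzmk-positive cells at 0 h, and at 102 and 14 CPM at 12 h. Siglech was at 49.2 and 80.9 CPM in Ccl5-only cells at 0 h and 12 h, against 0 and 49.9 CPM. These ratios include the Siglech-positive cells, whose part in them was not tested. Il7r, the interleukin 7 receptor that keeps memory cells alive, was at 456 against 164 CPM at 0 h and 406 against 156 CPM at 12 h. Ccr7, the lymph node homing receptor, had ratios of 0.399 and 0.18. Satb1, a chromatin organiser of immature and naive T cells, had ratios of 0.41 and 0.199. Ly6c2, a surface antigen of memory CD8 cells, was at 736 and 1011 CPM in Gzmk-positive cells, under its level in cells with at least 5 Ccl5 UMIs and no Gzmk. Gzmk-positive cells were shallower, with medians of 2327 and 2402.5 UMIs against 3310.5 and 3527.

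Between 0 h and 12 h most genes of these cells kept their level within 1.5-fold. Of 5754 genes measured, 269 (4.68%) were at least 1.5-fold higher at 12 h and 286 (4.97%) at least 1.5-fold lower. The median over all of them was -0.01 on the log2 scale. Without the Siglech-positive cells 232 (4.19%) of 5531 were higher and 295 (5.33%) lower. Most of these were low genes. Among the 1079 genes that reached 100 CPM in the library where they were higher, 27 (2.5%) were higher and 5 (0.463%) lower. With a minimum of 200 UMIs the counts over 2275 genes were 58 higher and 18 lower.

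**Figure D2:**
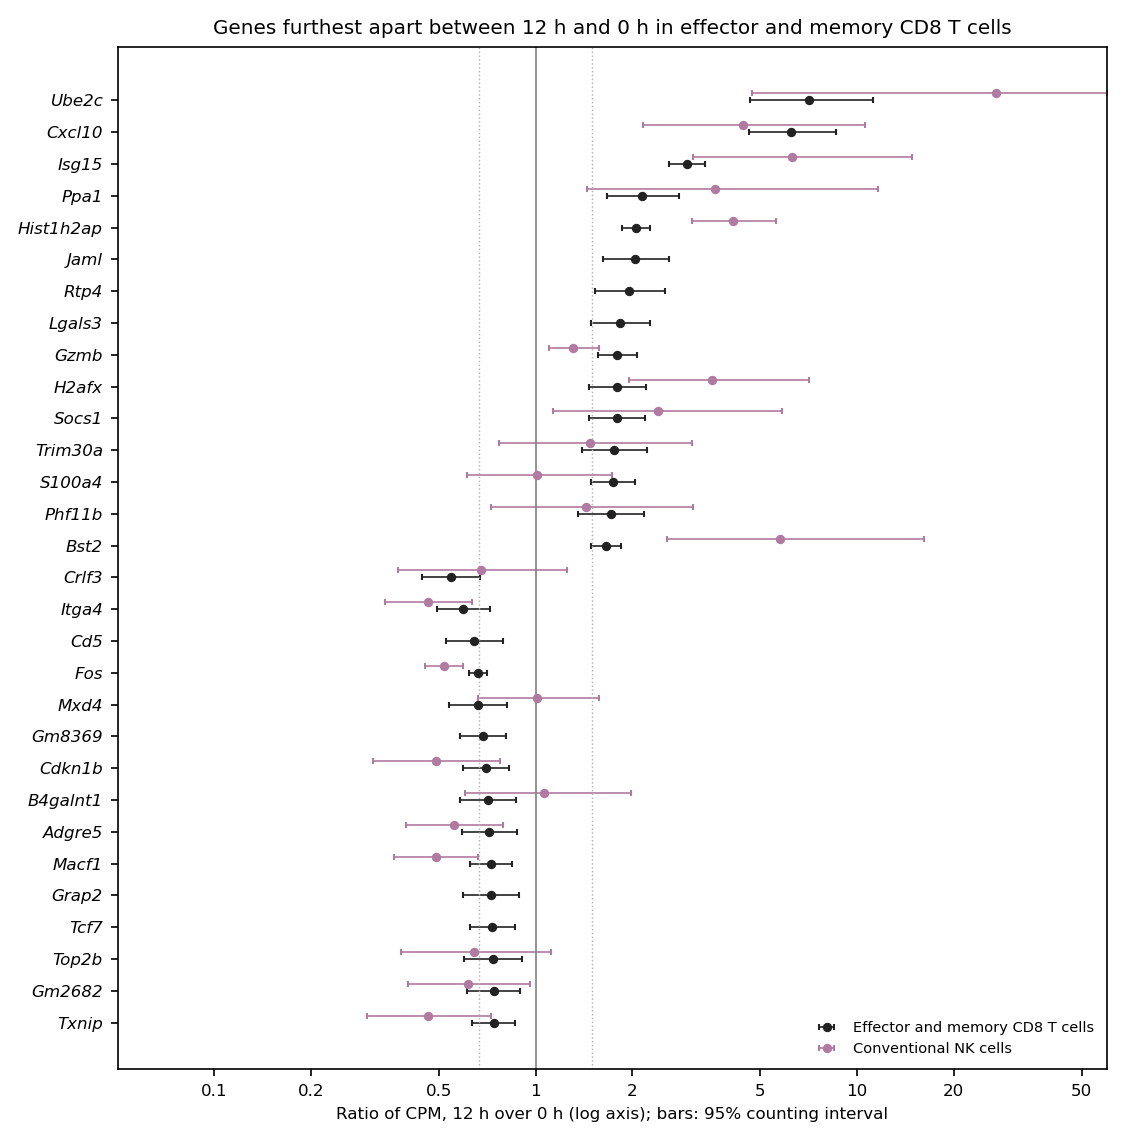
Ratio of the level at 12 h over 0 h, on a log axis, for the 15 highest and 15 lowest of the genes above 100 CPM in effector and memory CD8 T cells (black), with NK cells (purple) where at least 50 UMIs were found. Bars are 95% counting intervals, dotted lines mark 1.5-fold, and bars that reach the right edge run past it.

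The interferon genes are switched on through a short promoter motif, the interferon-stimulated response element, read by IRF9-containing complexes and by other interferon regulatory factors. Its core was searched for here as GAAANNGAAA on both strands, in windows from 250 bases before to 50 after each RefSeq gene start (GRCm38.p6). The following stretches are shown because they belong to the 4 interferon response genes with the largest ratios among those with a match, and to Cxcl10 of the interferon gamma list. They run 5′ to 3′ on the strand of the gene, with the matches in capitals. A capital run starting with TTTC is a match on the opposite strand.
Isg15, chr4:156200855-156200916, minus strand: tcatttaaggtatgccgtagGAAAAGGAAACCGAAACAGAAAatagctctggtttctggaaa
Ifit1, chr19:34640765-34640833, plus strand: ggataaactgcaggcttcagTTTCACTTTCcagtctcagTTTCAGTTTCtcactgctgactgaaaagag
Ifit3, chr19:34583353-34583436, plus strand: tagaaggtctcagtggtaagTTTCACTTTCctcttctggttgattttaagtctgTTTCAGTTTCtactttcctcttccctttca
Rsad2, chr12:26456543-26456592, minus strand: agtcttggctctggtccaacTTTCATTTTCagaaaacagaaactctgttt
Cxcl10, chr5:92349073-92349122, minus strand: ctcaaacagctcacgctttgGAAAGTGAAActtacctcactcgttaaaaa

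Isg15 holds 3 overlapping matches, the first of them 78 bases before the start. Ifit1 and Ifit3 hold 2 each, Rsad2 1 at 120 bases and Cxcl10 1 at 213 bases before the start. A match was found in 10 of the 18 interferon list genes that have a window, and in 1079 of all 27025 genes (3.99%). Among measured genes with a window it was in 212 of 4587 (4.62%), and by window in 1131 of all 32851 (3.44%). Among listed genes at least 1.5-fold higher at 12 h it was in 7 of 11, and among the other measured ones in 3 of 6. The window of Gzmb held no match. A match is a description of the letters and not of binding.

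Of the 25 interferon response genes listed, 24 were measured, and 15 of these were at least 1.5-fold higher at 12 h, with 0 lower. Among all genes measured 4.68% were higher. The list's median log2 ratio was 0.73, and its summed level was 3860 CPM at 0 h and 5612 CPM at 12 h. Without the Siglech-positive cells 14 were higher, the median was 0.77 and the sums were 3614 and 5266 CPM.

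Isg15, a ubiquitin-like protein that is joined to viral and cellular targets, was at 173 CPM (280 UMIs) at 0 h and 512 CPM (1339 UMIs) at 12 h. Its ratio was 2.95 (2.6 to 3.37), and the share of cells holding a UMI was 20.2% before and 34% after. The gene lies on chromosome 4 from 156199424 to 156200818, minus strand (GRCm38). Ifit3 and Ifit1, which bind foreign RNA, were at 10.5 and 12.4 CPM at 0 h and at 49 and 52 CPM at 12 h, with ratios of 4.65 (2.79 to 8.23) and 4.2 (2.62 to 7.1). Rsad2, the antiviral enzyme viperin, had 0 UMIs at 0 h and 63 at 12 h, in 5.34% of the 12 h cells. With a floor of 3 UMIs for the 0 h library, it was about 13-fold higher. That value leaves out the counting error of the 12 h UMIs and is not a lower bound. Each of these genes was found in a minority of the cells at 12 h.

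Usp18, which removes ISG15 and shuts off the type I interferon receptor, was at 12.4 and 50.5 CPM, a ratio of 4.08 (2.54 to 6.89). Isg20, an RNA exonuclease, was at 31.6 and 91.8 CPM, a ratio of 2.91 (2.14 to 4.01). Irf7, the factor that amplifies interferon output, had a ratio of 1.66 (1.26 to 2.2). Zbp1, a sensor of unusual nucleic acid, had 1.77 (1.38 to 2.29) and Trim30a 1.75 (1.39 to 2.23). Stat2, a carrier of the interferon signal, lay within 1.5-fold at 13.6 and 15.7 CPM (1.15, 0.67 to 2.03).

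**Figure D3:**
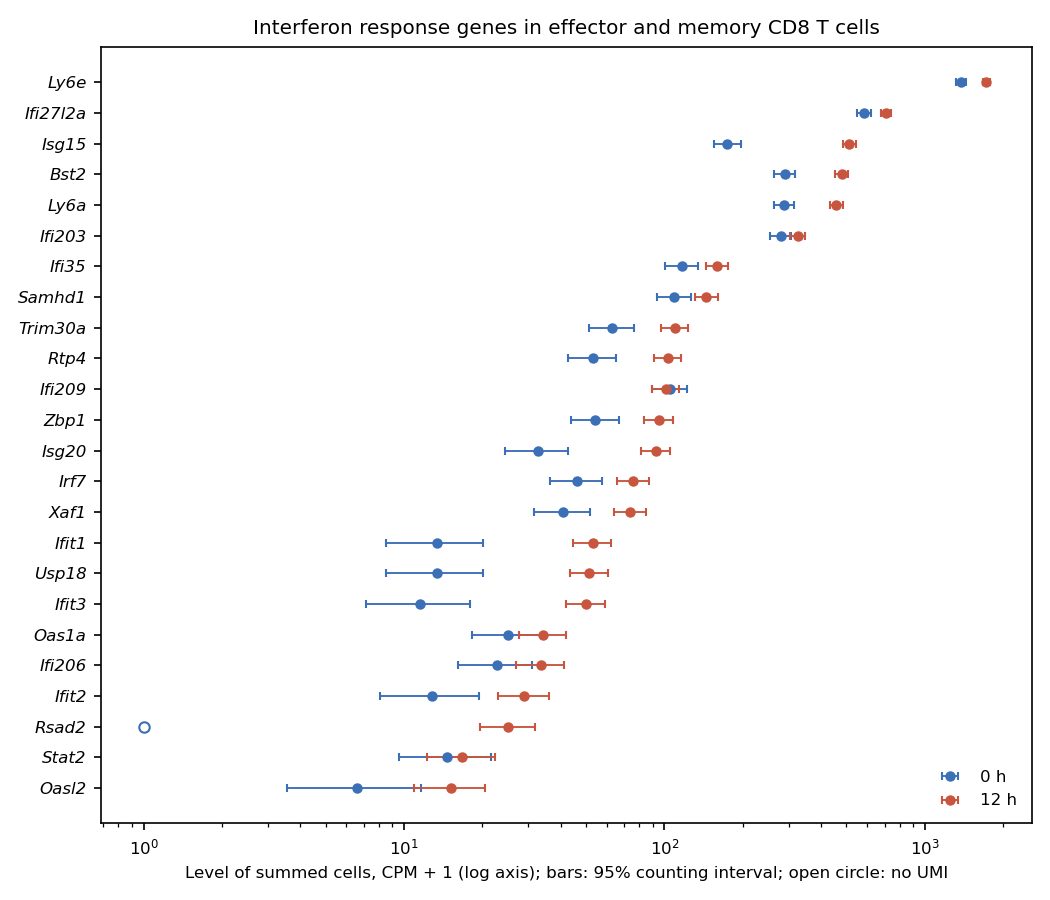
Level of 24 of the 25 listed interferon response genes in effector and memory CD8 T cells at 0 h (blue) and 12 h (red), in CPM plus 1 on a log axis, with 95% counting intervals. Rsad2 has no UMI at 0 h (open circle), and Ifi209 is the gene whose level at 12 h lies under that of 0 h.

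The interferon UMIs were spread unevenly over the cells. Per 10000 UMIs of a cell, the median number of interferon list UMIs was 30.3 at 0 h and 36.3 at 12 h. The cell at the 90th percentile held 70.3 at 0 h and 120 at 12 h. The 50 cells at 0 h and 72 at 12 h that held the most, about 10% of each, held 36.3% of all interferon UMIs at 0 h and 40% at 12 h. After thinning to 1000 UMIs, 29.1% (25.1 to 33.4) of the 474 remaining 0 h cells had at least 5 interferon UMIs. Of the 697 remaining 12 h cells 43.5% (39.8 to 47.2) did. The upper part of the distribution was thus further apart than its middle.

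**Figure D4:**
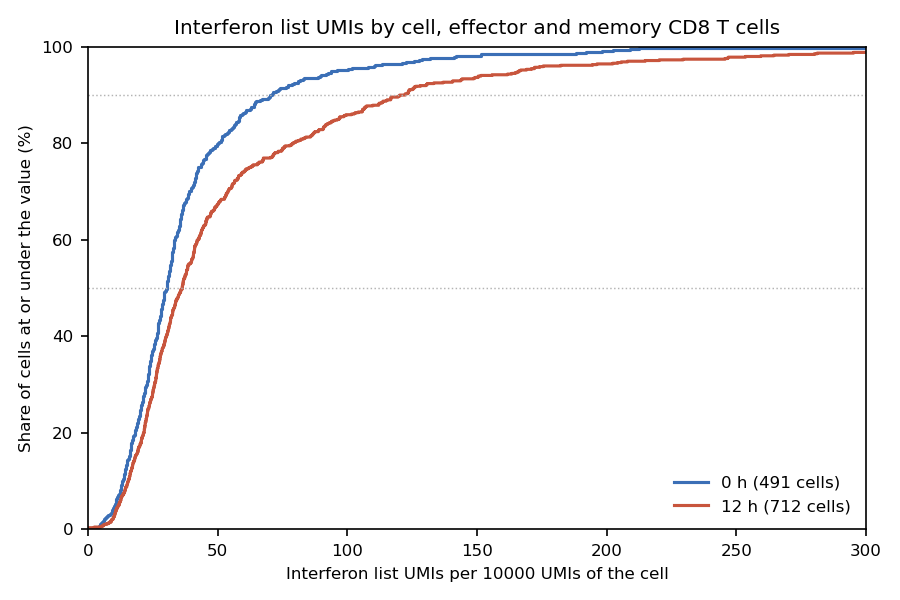
Share of effector and memory CD8 T cells (vertical axis, percent) at or under a given number of interferon list UMIs per 10000 UMIs of the cell (horizontal axis, drawn up to 300), for 491 cells at 0 h (blue) and 712 at 12 h (red). The curves lie close at the median (30.3 and 36.3) and apart at the 90th percentile (70.3 and 120), where the dotted lines run.

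Gzmk-positive and Ccl5-only cells both held more interferon UMIs at 12 h. The list summed to 3708 CPM in Gzmk-positive cells at 0 h and 6871 CPM at 12 h, and to 3891 and 5314 CPM in Ccl5-only cells. Whether the steps differ between these groups was not tested.

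Genes known for interferon gamma gave a mixed picture. Of 20 listed, 18 were measured, 4 were at least 1.5-fold higher and 0 lower, against 4.68% higher and 4.97% lower among all genes measured. The list's median was 0.31 on the log2 scale. The most distant was Cxcl10, a chemokine that draws in T and NK cells bearing CXCR3, on chromosome 5 from 92346638 to 92348889, minus strand (GRCm38). It was at 29.1 CPM (47 UMIs) at 0 h and 182 CPM (475 UMIs) at 12 h, a ratio of 6.24 (4.62 to 8.62), and 8.55 without the Siglech-positive cells. Its UMIs lay in 4.89% and 12.9% of the cells, against 1.45% and 2.41% of B cells.

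Socs1, the feedback inhibitor of interferon and cytokine receptors, was at 83 and 148 CPM, a ratio of 1.79 (1.47 to 2.19). Gbp2, a guanylate-binding protein, was at 14.9 and 40.9 CPM, with a ratio of 2.75 (1.76 to 4.49), and Gbp6 had 1.79 (1.18 to 2.79). Irf1, a central factor of the interferon gamma response, was at 354 and 353 CPM. Tap1, the peptide transporter, was at 53.9 and 37.1 CPM, and none of the 17 genes of MHC class I presentation passed 1.5-fold. Ifng itself was at 120 and 135 CPM, a ratio of 1.13 (0.948 to 1.36), in 25.5% and 28.8% of cells.

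Of 15 cytotoxic granule genes measured, 2 were at least 1.5-fold higher at 12 h and 1 lower, small counts beside the 4.68% and 4.97% of all genes measured. Gzmb, granzyme B, on chromosome 14 from 56258838 to 56262260, minus strand (GRCm38), was at 165 CPM (266 UMIs) at 0 h and 296 CPM (774 UMIs) at 12 h. The ratio was 1.8 (1.56 to 2.07), and 2.1 without the Siglech-positive cells, which held Gzmb at 616 CPM at 0 h and 205 CPM at 12 h. The share of cells with a Gzmb UMI was 24.4% and 33.6%. The step differed along the Ccl5 range. Without Gzmk, Gzmb was at 51.2 and 263 CPM with 2 to 4 Ccl5 UMIs, and at 64.3 and 190 CPM with 5 to 9. It was at 73.7 and 151 CPM with 10 to 29, and at 280 CPM at 0 h with at least 30. Gzmk-positive cells held it at 277 and 433 CPM. Over the alternatives of processing the Gzmb ratio ran from 1.51 to 2.55. The part of these groups in the ratio was not tested. B cells, read as background, held Gzmb at 54.1 and 93 CPM, in 9.11% and 8.2% of cells. Serpinb9, which protects the killer cell from its own granzyme B, was at 22.3 and 39.4 CPM, a ratio of 1.77 (1.2 to 2.66). Prf1, perforin, was at 43.3 and 28.3 CPM, a ratio of 0.653 (0.465 to 0.919).

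Gzma was at 983 and 1209 CPM (1.23, 1.16 to 1.31), and Nkg7 at 2094 and 2250 CPM (1.07, 1.03 to 1.12). Among the chemokines and cytokines, Ccl3 (1.02), Ccl4 (1.01), Ltb (0.967) and Tnf (1.07) lay near 1, and Xcl1, which calls in cross-presenting dendritic cells, was at 186 and 253 CPM (1.36, 1.18 to 1.56), beside 45.4 and 103 CPM in B cells. Besides Cxcl10, the only other one of 11 measured past 1.5-fold was Lta, lymphotoxin alpha, at 9.91 and 21.8 CPM (2.2, 1.25 to 4.11). Among all genes measured 4.68% were higher.

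Of 16 cell cycle genes, all were measured and 8 were at least 1.5-fold higher at 12 h, with 0 lower, against 4.68% and 4.97% of all genes measured. The list's median was 0.59 on the log2 scale. Ube2c, a ubiquitin-conjugating enzyme of mitosis, was at 14.9 CPM (24 UMIs) at 0 h and 105 CPM (275 UMIs) at 12 h, a ratio of 7.08 (4.66 to 11.2). Birc5, survivin, had a ratio of 3 (2.14 to 4.29), Ccnb2, a mitotic cyclin, 3.24 (1.73 to 6.61), and Cdk1 2.81 (1.44 to 5.98). The replication genes Pcna (1.08), Mcm3 (1.03) and Mcm6 (0.975) lay near 1. Cells with at least 2 UMIs over Mki67, Top2a, Ube2c, Birc5, Cdk1 and Ccnb2 numbered 20 (4.07%, 2.51 to 6.22) at 0 h and 47 (6.6%, 4.89 to 8.68) at 12 h. Thinned to 1000 UMIs, 1.48% and 3.73% held at least 2. The 50 cells at 0 h and 72 at 12 h with the most carried 95.5% and 97.2% of the UMIs of these genes. The ratio intervals above leave out such spread between cells.

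The Gzmk-positive cells held a larger share of such cells at both times, 8.42% and 13.8%, against 3.03% and 4.64% of the Ccl5-only cells. Hist1h2ap was at 321 and 660 CPM, a ratio of 2.06 (1.86 to 2.27), and H2afx, a histone that marks DNA breaks and is made in dividing cells, at 79.3 and 142 CPM. With cycling cells left out, Ube2c had a ratio of 0.996, and Hist1h2ap and H2afx had 1.08 and 1.01. Ube2c is itself one of the 6 genes that chose the cells left out.

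Among the other genes with the highest ratios, Jaml, a receptor that costimulates T cells at epithelia, was at 60.1 and 123 CPM, a ratio of 2.04 (1.62 to 2.59), with 15.3% and 25.7% of cells holding a UMI. S100a4 was at 134 and 234 CPM (1.74, 1.49 to 2.04) and Lgals3 at 73.7 and 135 CPM (1.83, 1.48 to 2.28). Ppa1, inorganic pyrophosphatase, was at 48.3 and 104 CPM (2.15, 1.66 to 2.8). Rtp4 (1.96), Phf11b (1.71) and Bst2 (1.65), all known to respond to interferon, completed the 15 highest.

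Only 5 of the 15 lowest genes were past 1.5-fold. Crlf3, a cytokine receptor-like factor, was at 126 CPM at 0 h and 68.9 CPM at 12 h, a ratio of 0.545 (0.444 to 0.669). Itga4, the integrin chain of VLA-4 that holds T cells to VCAM-1 on endothelium, was at 141 and 83.8 CPM, a ratio of 0.596 (0.493 to 0.721), in 28.5% and 21.6% of cells. Cd5, which restrains the T cell receptor, was at 116 and 75 CPM (0.644, 0.525 to 0.791). Fos, the immediate early factor, was at 1128 and 746 CPM (0.662, 0.62 to 0.706), and Mxd4, an antagonist of MYC, at 113 and 75 CPM (0.662, 0.538 to 0.814). Fos and Itga4 were lower in B cells too, at 0.596 and 0.662.

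The rest of the 15 lowest had ratios from 0.687 to 0.74. They include Cdkn1b (0.699), the brake p27 of the cell cycle, Tcf7 (0.732), a factor of stem-like memory, and Txnip (0.74), which limits glucose uptake. Of the 12 memory and stemness factors, Ccr7 was past 1.5-fold at 73.7 and 46.7 CPM (0.633, 0.488 to 0.822). Among all genes measured 4.97% were lower. S1pr1, the receptor that leads T cells out into lymph and blood, was at 60.1 and 40.9 CPM (0.682, 0.513 to 0.907), Lef1 at 154 and 131 CPM and Il7r at 406 and 358 CPM. Klf2 (0.972) and Bcl2 (1.15) lay near 1. Cells with 2 to 4 Ccl5 UMIs and no Gzmk were 88 of 491 at 0 h and 70 of 712 at 12 h. Ccr7 was at 80.4 and 104 CPM in them. It was at 136 and 50.4 CPM with 5 to 9 Ccl5 UMIs, and at 96 and 64.4 CPM with 10 to 29. In Gzmk-positive cells it was at 32.8 and 9.97 CPM. The part of this make-up in the ratios of naive and memory genes was not tested.

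Checkpoint and costimulatory receptors gave 3 of 15 lower and 0 higher, against 4.97% and 4.68% of all genes measured. Tnfrsf4, the costimulatory receptor OX40, was at 25.4 CPM (41 UMIs) and 4.21 CPM (11 UMIs), a ratio of 0.166 (0.0768 to 0.328). Lag3 had a ratio of 0.647 with an interval that includes 1 (0.416 to 1.01), and Cd5 is the third. Tnfrsf4 also serves as a CD4 T cell marker, and Cd4 itself had a UMI in 4.28% of the cells at 0 h and 1.83% at 12 h. The part of such cells in the Tnfrsf4 ratio was not tested. Pdcd1, which encodes PD-1, had 14 and 22 UMIs (0.971, 0.475 to 2.05), and Tigit was at 93.5 and 73.8 CPM (0.79, 0.635 to 0.984).

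Genes of recent T cell receptor signalling did not move together. Of 12 measured, 0 were past 1.5-fold higher and 1, Egr1, was lower, at 89.8 and 58.1 CPM (0.648, 0.512 to 0.819). Among all genes measured 4.68% were higher and 4.97% lower, the background for each count in this paragraph. Nr4a1 was at 21.7 and 20.7 CPM, and Cd69 at 471 and 550 CPM (1.17, 1.07 to 1.28). The immediate early list, which also responds to tissue digestion, gave Fos, Fosb and Egr1 lower and Hspa1a higher of 22. Of the effector transcription factors 0 of 11 were higher and 1, Ikzf2, was lower, while Tbx21 was at 30.3 and 43.2 CPM (1.42, 1.01 to 2.04) and Eomes at 57 and 44 CPM (0.772, 0.582 to 1.03). No gene passed 1.5-fold either way among the 11 measured of tissue residency, the 15 of glycolysis and hypoxia, the 15 of mTOR, MYC and amino acid supply or the 16 of actin and cytoskeleton.

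The same ratios were read in NK cells (87 at 0 h and 171 at 12 h) and in B cells. Of 10 interferon list genes measured in NK cells 4 were higher, with a list median of 0.50 on the log2 scale, and of 21 in B cells 2 were higher and 1 lower, with -0.06. Over all genes measured, 10.4% were higher and 9.91% lower in NK cells, and 2.85% and 7.49% in B cells. The NK cells are shallower in sum, with 172612 and 457886 UMIs, so fewer genes could be measured in them.

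Isg15 was higher at 12 h in both, at 6.27 (3.09 to 14.8) in NK cells and 1.63 (1.35 to 1.98) in B cells. Cxcl10 had 4.43 (2.16 to 10.6) in NK cells, from 8 and 94 UMIs, and 2.36 (1.51 to 3.78) in B cells. Socs1 had 2.4 (1.13 to 5.86) and 1.25 (0.942 to 1.67). Ube2c was at 1 and 72 UMIs in NK cells and 46 and 137 in B cells. Itga4 was lower in NK cells, at 0.464 (0.341 to 0.634), and Crlf3 had 0.675 (0.374 to 1.25). None of these differences between cell types was tested, since each rests on 1 library per time.

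The IL-22-positive libraries held 9 of the cells. Their Ccl5 ran from 21 to 239 UMIs per cell at 0 h and from 9 to 79 at 12 h, and 3 of 5 and 1 of 4 held Gzmk. None had an Il22 UMI. With a limit set at 3 divided by the number of cells, up to 60% and 75% could still hold a captured UMI. This limit is rough at so few cells and does not bound the share that express the gene. All 121 Gzma UMIs of the 0 h library lay in 1 cell. In the IL-22-negative libraries, Il22 had 5 UMIs in 2 of 491 cells at 0 h, and none in 712 at 12 h. By the same limit, a captured UMI in as many as 0.421% of the 12 h cells is not excluded.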

How the data were processed

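The deposited matrices hold UMI counts, whole numbers per gene and barcode for 32285 features. Cell Ranger 4.0.0 produced them per the file headers, whereas the submitters' processing notes name Cell Ranger 3.0.1 and mm10. Per the labels' protocols, leukocytes had been freed with collagenase, enriched on Percoll and sorted.

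The cells, gene lists and limits were chosen with earlier results of these data known. UMIs of the chosen cells were summed per library and given as CPM. A gene was measured at 50 UMIs or more over both sums and counted as higher or lower at 1.5-fold. Sums of 0 were set to 3 UMIs. Ratios of levels and ratios of shares carry conditional binomial 95% intervals, exact for counts that are small parts of their totals. Those of levels treat each UMI as an independent draw and leave out the spread between cells. Shares carry Clopper-Pearson 95% intervals, apart from the limits given for Il22, and cover the sampling of cells alone. Named genes are the 15 highest and 15 lowest ratios among genes whose higher sum reached 100 CPM and 50 UMIs, leaving out mitochondrial, ribosomal, receptor-segment, sex-linked, hepatocyte and rule genes, and members of 22 gene programmes and 15 marker lists. Between Gzmk-positive and Ccl5-only cells, the 12 genes furthest apart each way in both libraries were named, and genes from these lists. B cells are barcodes with at least 2 Cd79a UMIs and a Ms4a1 UMI, and NK cells those with Ncr1 or Klre1, Eomes or Itga2 and no Cd3. Scrublet calls (scanpy 1.11.5) were removed only as an alternative; its automatic threshold called 1 barcode at 12 h, so that of 0 h was used. On simulated sums with known ratios over 5754 genes, 95.8% of the intervals held the true ratio and 4.41% of unchanged genes passed 1.5-fold. The simulation also drew UMIs independently, so it does not bear on the spread between cells. Scripts ran in Python 3.11.15 with numpy 2.4.6, scipy 1.17.1 and pandas 2.3.3. Promoter windows are those of RefSeq on GRCm38.p6, the build of mm10, and gene positions those of GENCODE. Some results are not reported here.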

Additional observations from a re-analysis of the deposited data

How the results depend on the processing

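No paired analysis was possible because each group has 1 library. Values were recomputed under 17 alternatives, those that bear on each (a change of scaling leaves the share as it is), and 4 of them (leaving out Siglech-positive cells or cycling cells, and requiring 2 Cd3 or 10 Ccl5 UMIs) were chosen after seeing the data. The ratio of the share was 0.976 when barcodes were thinned to 1000 UMIs first and 1.35 with at least 10 Ccl5 UMIs, and 1.07 to 1.33 otherwise. Counts of genes higher and lower were 149 and 102 with the Gzmk arm alone (1931 genes measured), 85 and 74 after thinning (1633 genes measured), and 58 and 18 with 200 UMIs (2275 genes measured). With a mean over cells of counts per 10000, 269 genes were higher and 565 lower, and the cause was not tested. The interferon list's median log2 ratio was above 0 under every alternative run, between 0.60 (thinned) and 1.10 (Gzmk arm alone). It was 0.67 without Scrublet calls, 1.00 with 2 Cd8b1 UMIs, 0.78 with 4 Ccl5 or 2 Gzmk UMIs, 0.77 as a mean over cells, 0.78 with 10 Ccl5 UMIs and 0.82 with 2 Cd3 UMIs. Of 510 values of the 30 named genes, 456 lay within the gene's counting interval, 53 lay outside it, and 1 reversed, that of Ube2c without cycling cells (0.996). Depth limits low genes most, and 1 library per time leaves the spread between mice unknown.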

Other observations

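Some genes outside the main lists are given as values. Cycs, which encodes cytochrome c, was the 1 gene past 1.5-fold among 17 of oxidative phosphorylation, against 4.68% higher among all genes measured. It was at 219 CPM at 0 h and 345 CPM at 12 h, a ratio of 1.58 (1.4 to 1.79). Klrc2, an activating NK receptor, had 14 and 46 UMIs (2.03, 1.1 to 4), and Klra3, an inhibitory one, 43 and 38 UMIs (0.546, 0.343 to 0.865). Havcr2, which encodes TIM-3, had 25 and 14 UMIs, under the 50 UMIs set for a measured gene. Ccr2, a receptor for inflammatory chemokines, had 42 and 109 UMIs (1.6, 1.11 to 2.35).

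S100a4 had a ratio of 1.74 (1.49 to 2.04) in the effector and memory cells and 1.01 (0.61 to 1.73) in NK cells.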
